A study of Mus musculus with 6 samples.

Results

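The nuclear genes for complexes II and III of the respiratory chain, for cytochrome c and for the mitochondrial ATP synthase were compared between cold-acclimated iWAT of control and AKO mice. The genes were those of the RNA-Seq table whose symbol begins with Uqcr or Atp5, together with Sdha, Sdhb, Sdhc, Sdhd, Cyc1 and Cycs. This rule took 31 of the 16538 listed genes: 4 for complex II, 9 for complex III, 1 for cytochrome c, 15 for ATP synthase, and 2 with an Atp5 symbol that do not encode subunits. Inguinal white adipose tissue (iWAT) is a subcutaneous fat depot of the mouse in which beige adipocytes form in the cold. The control mice, genotype wt in the labels and fl/fl in the study's text, have a floxed but undeleted Nrg4. The NRG4-AKO mice lack Nrg4, which encodes the secreted factor neuregulin 4, in adipocytes through Adiponectin-Cre, so that other cells of the depot keep the gene. Both groups were chow-fed littermates kept at 8 °C, for 10 days by the labels, and each of the 3 samples per group held RNA pooled from 2 mice of a genotype. The study's text gives a longer cold exposure than the labels do. The ages of the mice were not given in the sources used here.

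Complex II (succinate dehydrogenase) links the TCA cycle to the respiratory chain by passing electrons from succinate to ubiquinone. Complex III passes them on from ubiquinol to cytochrome c and pumps protons, and ATP synthase lets protons back into the matrix to make ATP. In brown and beige adipocytes UCP1 offers protons another way back, and brown fat is known for little ATP synthase relative to its respiratory chain.

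The values are normalized counts, that is, reads per gene divided by a scaling factor for each sample. Depth was alike, from 17570335 to 18373707 reads on the listed genes. Reads on the whole Nrg4 gene were lower but not absent in AKO, from 3092 to 3128 normalized counts in control and from 2577 to 2691 in AKO, and a count over the whole gene does not resolve the deleted part. The adipocyte gene Adipoq was high in all samples, from 33299 to 36454 normalized counts in control and from 28174 to 34761 in AKO. The libraries also held skeletal muscle transcripts in very different amounts. Acta1, the actin of skeletal muscle, had 62.2, 6536 and 3498 normalized counts in control and 4377, 15282 and 27039 in AKO, and Ckm, the muscle creatine kinase, had 4.01, 1363 and 961 normalized counts in control and 1219.6, 4640.4 and 6875 in AKO. Control replicate 1 was the lowest for both, and AKO replicates 2 and 3 were the highest. In RNA of a whole depot, fewer cells of a type and less RNA per cell cannot be told apart.

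Promoter sequences are shown for 4 of these genes because nuclear respiratory genes are known to share sites for a few regulators, among them NRF1, the GABP/ETS factors, the estrogen-related receptors (ERR) and YY1. The windows run from 250 bases before to 50 bases after the annotated start (RefSeq, GRCm38.p6), 5′ to 3′ along the gene. Capitals mark the letters searched for on both strands: GCGC, any 2 bases and GCGC again for NRF1, CCGGAAG for GABP/ETS, TCAAGGTCA for ERR and ATGGCGGC for YY1. The Sdha window (chr13:74350191-74350490, minus strand) held the NRF1 letters in 3 places. The Sdhd window (chr9:50603800-50604099, minus strand) held the NRF1, GABP/ETS and ERR letters in 1 place each, the last 2 on the other strand. The Uqcrc1 window (chr9:108936398-108936697, plus strand) held the NRF1 letters in 2 places, both after the start. The Atp5b window (chr10:128083057-128083356, plus strand) held none of the 4.
Sdha: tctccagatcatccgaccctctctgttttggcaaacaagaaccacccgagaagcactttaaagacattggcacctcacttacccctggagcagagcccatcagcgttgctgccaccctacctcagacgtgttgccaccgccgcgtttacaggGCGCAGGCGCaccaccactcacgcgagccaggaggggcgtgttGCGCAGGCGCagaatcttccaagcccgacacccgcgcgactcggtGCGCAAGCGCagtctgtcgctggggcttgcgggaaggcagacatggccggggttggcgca
Sdhd: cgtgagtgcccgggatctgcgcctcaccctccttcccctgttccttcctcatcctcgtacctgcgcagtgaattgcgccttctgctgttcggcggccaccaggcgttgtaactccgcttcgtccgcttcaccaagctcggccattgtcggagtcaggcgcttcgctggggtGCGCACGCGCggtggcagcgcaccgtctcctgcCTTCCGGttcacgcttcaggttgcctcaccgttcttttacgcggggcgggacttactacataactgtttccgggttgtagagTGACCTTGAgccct
Uqcrc1: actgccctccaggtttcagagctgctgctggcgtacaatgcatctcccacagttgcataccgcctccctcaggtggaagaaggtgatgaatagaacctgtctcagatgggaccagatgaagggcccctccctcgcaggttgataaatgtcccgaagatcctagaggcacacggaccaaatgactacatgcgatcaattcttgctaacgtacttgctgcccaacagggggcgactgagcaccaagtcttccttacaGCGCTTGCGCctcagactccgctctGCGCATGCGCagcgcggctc
Atp5b: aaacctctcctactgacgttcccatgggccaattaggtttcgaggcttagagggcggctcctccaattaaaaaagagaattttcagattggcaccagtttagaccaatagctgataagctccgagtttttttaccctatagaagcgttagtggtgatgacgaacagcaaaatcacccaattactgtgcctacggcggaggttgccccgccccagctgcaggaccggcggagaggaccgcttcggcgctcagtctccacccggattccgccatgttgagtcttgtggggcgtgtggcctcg

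Of the 31 genes, 25 had a promoter in the table used here. The NRF1 letters, which read the same on both strands, stood in 8 of the 25 windows (Sdha, Sdhd, Uqcrc1, Atp5g2, Atp5g3, Atp5h, Atp5k and Atp5o) and in 6.43% of all 27025 promoters. The GABP/ETS letters stood in 8 windows (Sdhb, Sdhd, Uqcrh, Uqcr11, Atp5e, Atp5h, Atp5k and Atp5l) and in 9.12% of all promoters. Over the 17492 promoters of coding genes alone these shares were 8.80% and 11.9%. The ERR letters stood in 2 windows (Sdhd and Atp5g3, 0.407% of all promoters), and the YY1 letters in 1, that of Atp5sl, which is no subunit (2.38% of all promoters). These are matches of letters, not measured binding, and a window without them says nothing about a factor.

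Most of the genes were modestly lower in AKO iWAT, and no single gene passed the adjusted threshold with limma. Differences are log2 fold changes of AKO against control from limma on log2(normalized count + 1), fitted over the 13855 genes whose mean reached 10 normalized counts. Of the 31 genes 30 were tested, all but Atp5g2, which had too few reads. The fitted value was below 0 for 28 of the 30, against 48.1% of all genes tested, and for 25 of the 30 with scaling by total reads or without control replicate 2. The median over the 28 tested subunit and cytochrome c genes was -0.21, while that over all tested genes was 0.01. By complex the medians were -0.21 for complex II, -0.26 for complex III and -0.14 for ATP synthase. With an adjusted p under 0.05 limma called none of the 30 genes, edgeR on the recovered reads none, and DESeq2 only Uqcrc2. The same rules called 0.0144% of all genes with limma, 0.0216% with edgeR and 0.998% with DESeq2. Before adjustment, limma gave a p under 0.05 to 13 genes lower in AKO (4.69% of all genes tested) and to 1 gene higher, Atp5g1 (4.41%). An unadjusted p under 0.05 was found for 13 of the genes with edgeR and for 13 with DESeq2, for which the share over all genes was not computed. The AKO samples lay wholly below the control samples for 11 genes (8.31% of all genes tested) and wholly above them for Atp5g1 (6.14%). With 3 samples against 3, the 2-sided exact permutation test gives such genes p = 0.1, the smallest p it can give.

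**Figure D1:**
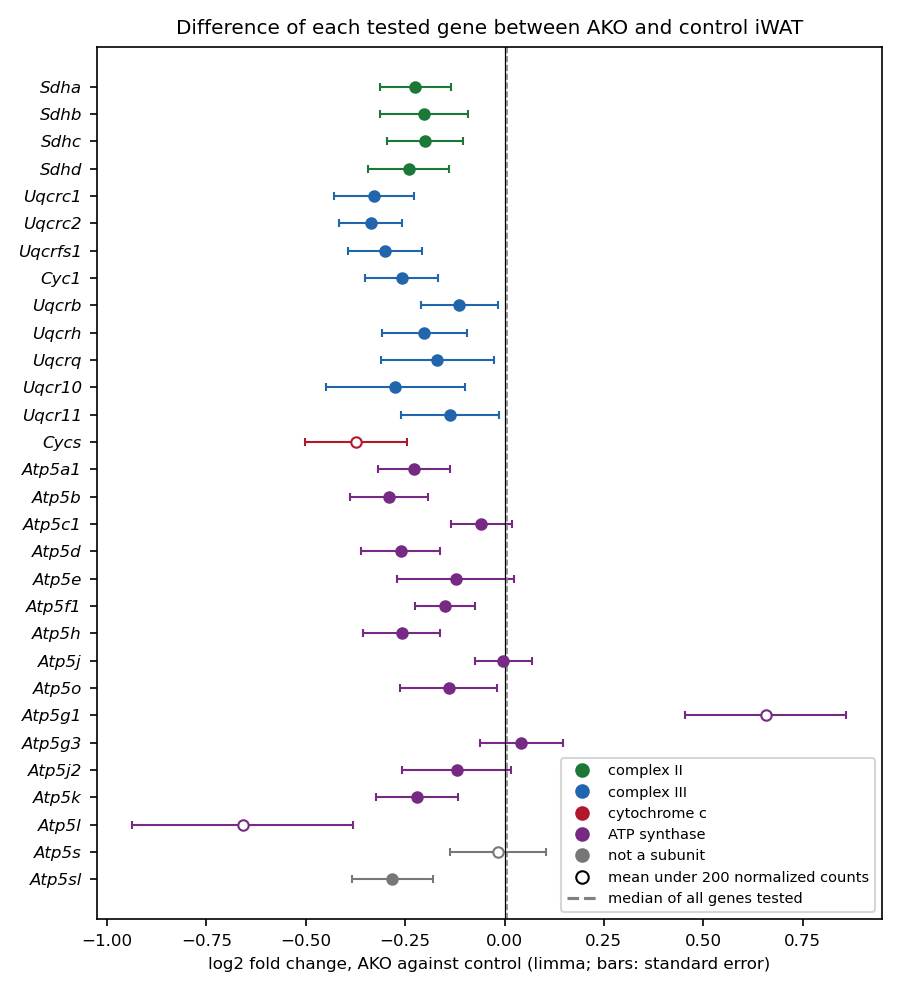
Log2 fold change of AKO against control (x axis, limma, bars show the standard error) for each of the 30 tested genes (y axis), coloured by complex; open points have a mean under 200 normalized counts. Of the 30 points 28 lie left of 0 (25 with scaling by total reads), and the points farthest from 0 are Atp5g1 at 0.66 and Atp5l at -0.66, both open.

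All 4 complex II genes had lower means in AKO, with close fold changes. Sdha (chr13:74322254-74350280 of GRCm38, minus strand, 15 exons) encodes the flavoprotein that oxidizes succinate. It had 16356, 19603 and 16362 normalized counts in control and 14531, 15431 and 14669.7 in AKO. The highest AKO sample was below the lowest control sample (log2 fold change -0.22, standard error 0.09, adjusted p = 0.522 with limma). Sdhb (chr4:140961203-140979193, 8 exons), for the iron-sulfur subunit that carries electrons from the flavin, had 4678, 5869 and 4677 normalized counts in control and 3949.7, 4458 and 4784 in AKO. The groups overlapped, since AKO replicate 3 was above control replicates 1 and 3 (log2 fold change -0.20, standard error 0.11, adjusted p = 0.630 with limma). Sdhc (chr1:171127165-171150603) and Sdhd (chr9:50596357-50603812) encode the membrane anchors that hold the heme and the ubiquinone site. Sdhc had 4783, 6083 and 5516 normalized counts in control and 4429.9, 4787 and 4996 in AKO (log2 fold change -0.20, standard error 0.10, adjusted p = 0.584 with limma). Sdhd had 2639, 3483 and 2972 normalized counts in control and 2415, 2559.9 and 2678 in AKO (log2 fold change -0.24, standard error 0.10, adjusted p = 0.539 with limma). In both anchors the highest AKO sample lay above control replicate 1, the lowest control sample. The means of Sdha were 17441 ± 1873 in control and 14878 ± 485 in AKO (SD, n = 3), a difference of -14.7%. Over the 4 genes this difference ran from -15.8% (Sdhd) to -13.2% (Sdhc). No 50-base stretch of the principal transcripts of Sdha, Sdhb or Sdhd occurs in another annotated gene.

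In complex III the genes for the core proteins and the electron carriers lay wholly below control in AKO (8.31% of all genes tested did). The groups overlapped for all 5 small subunits. The 4 larger subunits had a median log2 fold change of -0.31 and the 5 small ones of -0.17, a difference between the classes that was not tested. Without control replicate 2 these medians were -0.21 and -0.088. Uqcrc2 (chr7:120635176-120659524, plus strand, 14 exons), for core protein 2, had 7639.7, 9088 and 7922 normalized counts in control and 6296, 6767 and 6406 in AKO. Its means were 8217 ± 768 and 6489.7 ± 246 (SD, n = 3), a difference of -21.0%. Its limma p was the smallest of the 30 genes (log2 fold change -0.34, standard error 0.08, adjusted p = 0.315). DESeq2 on the recovered reads gave it an adjusted p of 0.0132 with a log2 fold change of -0.34, and over all alternative settings its adjusted p ran from 0.0132 to 0.714. Of its exon bases 19.7% overlap Pdzd9 on the opposite strand, which had from 0.976 to 5.08 normalized counts in any sample. Uqcrc1 (chr9:108936633-108949623, 13 exons), whose product pairs with that of Uqcrc2, had 7397, 9163 and 7359 normalized counts in control and 5874, 6399.7 and 6702 in AKO (log2 fold change -0.33, standard error 0.10, adjusted p = 0.448 with limma).

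Uqcrfs1 (chr13:30540308-30545362, 2 exons) encodes the Rieske iron-sulfur protein, which takes the first electron from ubiquinol. It had 4959, 6375 and 5414 normalized counts in control and 4403, 4544 and 4569 in AKO, and the AKO samples lay close together (log2 fold change -0.30, standard error 0.09, adjusted p = 0.449 with limma). Cyc1 (chr15:76343523-76346260, 7 exons), for cytochrome c1, the heme protein that hands electrons to cytochrome c, had 6117, 7648 and 6709 normalized counts in control and 5405, 5628 and 6023 in AKO (log2 fold change -0.26, standard error 0.09, adjusted p = 0.498 with limma). The highest AKO sample of Cyc1 was just below the lowest control sample. Among the small subunits, Uqcrb had the value nearest to 0 and Uqcr10 the one farthest from it. Uqcrb had 1133, 1341 and 1425 normalized counts in control and 1107, 1238 and 1247 in AKO (log2 fold change -0.11, standard error 0.10, adjusted p = 0.787 with limma). Of the 50-base stretches of its principal transcript 43.4% occur in 5 other annotated genes, 4 of them pseudogenes. Uqcr10 had 2420.5, 3272 and 2915 normalized counts in control and 1826, 2441 and 2926 in AKO, and with AKO replicate 1 far below the other samples its standard error was the largest of the complex (log2 fold change -0.27, standard error 0.18, adjusted p = 0.694 with limma). Uqcrq had 2753, 4114 and 3380.0 normalized counts in control and 2675, 3096 and 3253 in AKO (log2 fold change -0.17, standard error 0.14, adjusted p = 0.785 with limma), and control replicate 1 was below AKO replicates 2 and 3. Without control replicate 2 the log2 fold change of Uqcrq was -0.025. The remaining 2 small subunits, the hinge protein gene Uqcrh and Uqcr11, had log2 fold changes of -0.20 and -0.14.

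Cycs (chr6:50562563-50566538), for somatic cytochrome c, the mobile carrier between complexes III and IV, had 129, 167 and 140.3 normalized counts in control and 113, 115 and 106 in AKO. The groups did not overlap (log2 fold change -0.37, standard error 0.13, adjusted p = 0.492 with limma), and the means were 145 ± 19.2 and 112 ± 4.83 (SD, n = 3). The counts are low for this gene. Of the 50-base stretches of its principal transcript 28.5% occur in 76 other annotated genes, 10 of them pseudogenes, so its reads may have been split among copies or left out. From 110 to 155 reads per sample stood behind these values. In AKO the SD between samples was 4.33% of the mean, below the 9.31% that counting alone gives, so the SD understates the error there.

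Within ATP synthase, 3 of the 5 subunits of the F1 head had AKO samples wholly below the control samples (8.31% of all genes tested did). None of the 4 subunits of the peripheral stalk did, a difference between the parts that was not tested. In the stalk, Atp5h (log2 fold change -0.26) overlapped only because AKO replicate 3, at 824 normalized counts, was above control replicate 1, at 799. Of the 14 tested genes 12 were below 0 (10 with scaling by total reads, 9 without control replicate 2). Atp5b (chr10:128083273-128090391, plus strand, 10 exons) encodes the catalytic beta subunit and was the most abundant of all 31 genes. It had 48773, 58264 and 50073 normalized counts in control and 40714, 43399.7 and 43961 in AKO. Its means were 52369.9 ± 5146 and 42692 ± 1735 (SD, n = 3), with no overlap (log2 fold change -0.29, standard error 0.10, adjusted p = 0.488 with limma). Atp5a1 (chr18:77773729-77782869, 12 exons), for the alpha subunit that alternates with beta in the head, had 23210.2, 27769.5 and 23742 normalized counts in control and 20204, 21883 and 21563 in AKO (log2 fold change -0.23, standard error 0.09, adjusted p = 0.522 with limma). Atp5d, for the delta subunit of the central stalk, had 6018, 7763 and 6339 normalized counts in control and 5268, 5705 and 5725 in AKO (log2 fold change -0.26, standard error 0.10, adjusted p = 0.515 with limma). Here too no AKO sample reached the lowest control sample. The other central stalk subunits, gamma (Atp5c1) and epsilon (Atp5e), had log2 fold changes of -0.06 and -0.12, and for both the lowest sample was control replicate 1. Atp5c1 moved to 0.00030 with scaling by total reads, and Atp5e to 0.024 without control replicate 2.

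The peripheral stalk keeps the F1 head from turning with the rotor. Its 4 genes ran from -0.26 for Atp5h (subunit d) through -0.15 for Atp5f1 (subunit b) and -0.14 for Atp5o (OSCP) to 0 for Atp5j (coupling factor 6). Of the 50-base stretches of the principal transcripts of Atp5h and Atp5f1, 47.9% and 38.7% occur in other annotated genes. Reads of both may have been split among copies or left out. Atp5j had 1545, 1728 and 1736 normalized counts in control and 1736, 1578 and 1681 in AKO, with a log2 fold change that rounds to 0 (standard error 0.07, adjusted p = 0.995 with limma). Control replicate 1 was its lowest sample, and the sign of its fold change turned positive with TMM factors and with scaling by total reads. Of the exon bases of Atp5j 12.7% overlap Gabpa on the opposite strand, which had from 753 to 985 normalized counts. The GENCODE M21 entry used for Atp5o (chr16:91684398-91926982, minus strand) shares all its exon bases with Donson on the same strand. Donson was listed at only 81.9 to 96.8 normalized counts. The RefSeq promoter window of Atp5o (chr16:91931581-91931880) lies outside this entry, so the entry may not represent the gene that was counted.

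Subunit c forms the rotor ring in the membrane, and 3 genes encode the same mature protein. Nearly all of the reads counted for it came from Atp5g3 (chr2:73908447-73911326, minus strand, 5 exons), which had 4077, 5203 and 5065 normalized counts in control and 4743, 4663 and 5307 in AKO. The groups overlapped, with AKO replicate 3 the highest sample and control replicate 1 the lowest (log2 fold change 0.04, standard error 0.10, adjusted p = 0.943 with limma). Its log2 fold change was -0.068 without control replicate 1 and -0.016 without AKO replicate 3, so its direction is not settled. Atp5g1 (chr11:96068852-96075670) had 40.1, 28.0 and 34.6 normalized counts in control and 49.0, 53.7 and 59.8 in AKO. It was the one gene whose AKO samples all lay above the control samples (log2 fold change 0.66, standard error 0.20, adjusted p = 0.450 with limma). Those values came from 26 to 62 reads per sample. Of the 50-base stretches of its principal transcript 11.6% occur in 366 other annotated genes, 8 of them pseudogenes. Atp5g2 had 7.02, 5.38 and 11.2 normalized counts in control and 6.72, 16.6 and 9.64 in AKO, from 5 to 17 reads, and 87.4% of its stretches occur elsewhere. The levels of Atp5g1 and Atp5g2 are therefore uncertain. Within a sample the ratio of Atp5g3 to Atp5b does not depend on scaling, and it was chosen here after the values were seen. It was 0.0836, 0.0893 and 0.101 in control and 0.116, 0.107 and 0.121 in AKO. Every AKO sample had more Atp5g3 per Atp5b than every control sample, a description with no test.

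Of the other membrane subunits, Atp5k (subunit e) and Atp5j2 (subunit f) had log2 fold changes of -0.22 and -0.12 with overlapping groups, and Atp5j2 came to 0.00038 without control replicate 2. Atp5l (subunit g) had 26.1, 29.0 and 23.4 normalized counts in control and 12.5, 16.6 and 20.2 in AKO. These values came from 13 to 27 reads per sample, and no AKO sample reached a control sample (log2 fold change -0.66, standard error 0.28, adjusted p = 0.539 with limma). However, 84.8% of the 50-base stretches of its principal transcript occur in 14 other annotated genes, 12 of them pseudogenes, so the value is uncertain. The SD of Atp5l between control samples, 10.8% of the mean, was below the 19.9% that counting alone gives. Atpif1, whose product inhibits ATP synthase when it would run backwards, had 219, 266 and 293 normalized counts in control and 247, 282 and 301 in AKO. Its groups overlapped (log2 fold change 0.10, standard error 0.13, adjusted p = 0.877 with limma), and the value was -0.017 without control replicate 1. The remaining pair of genes bear an Atp5 symbol without encoding a subunit. Atp5s, known as coupling factor B, had 123, 109 and 124 normalized counts in control and 108, 122 and 122 in AKO (log2 fold change -0.02, standard error 0.12, adjusted p = 0.985 with limma), and its sign turned with scaling by total reads. Atp5sl, listed as Dmac2 in GENCODE M21 and tied to the assembly of complex I, had 595, 646 and 526 normalized counts in control and 439, 522 and 489.8 in AKO, with no overlap (log2 fold change -0.28, standard error 0.10, adjusted p = 0.505 with limma).

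To compare levels between genes, normalized counts were divided by the length of each gene's principal transcript in kilobases. In control iWAT the catalytic genes of ATP synthase stood at the top, with Atp5b at 27333 ± 2686 and Atp5a1 at 10079.9 ± 1009 normalized counts per kb (SD, n = 3). Atp5g3 followed at 6614 ± 849, and it did not differ from Atp5o at 6189 ± 984 beyond the spread between samples. The level of Atp5o rests on the 530 bases of an entry that may not represent the gene counted, and is uncertain. From Atp5g3 through Atp5o and Atp5c1 to Atp5d each neighbour overlapped the next in its control range, and so did Atp5k, Atp5j2, Atp5j, Atp5e and Atp5f1. At the bottom of the ATP synthase genes stood Atp5l at 48.1 ± 5.20, Atp5g2 at 10.8 ± 4.09 and Atp5g1 at 7.26 ± 1.29 normalized counts per kb, the genes with few reads. Cycs, at 46.6 on average, lay just below Atp5l. Within complex II the order was Sdha at 6014 ± 646, Sdhb at 4444 ± 602, Sdhd at 2463 ± 345 and Sdhc at 1722 ± 206 normalized counts per kb, and no neighbours overlapped. In complex III Uqcr10 stood apart at 6612 ± 986 normalized counts per kb, and each later gene, from Uqcrc1 at 4823 ± 624 down to Uqcrq at 2246 ± 448, overlapped the next. The order depends on the transcript chosen. With all annotated exon bases in place of the principal transcript, Atp5g3 moved from rank 3 to rank 13 of the 31 genes, while Atp5b and Atp5a1 stayed at ranks 1 and 2. In complex II, Sdhd then moved from rank 17 to rank 11 and Sdhb from rank 11 to rank 12, which reversed their order. Uqcrc1 moved from rank 8 to rank 15. Across the 25 subunit genes with a mean of 500 normalized counts or more, Spearman's rho of the log2 fold change was -0.46 with the mean count and -0.41 with transcript length, and across all 28 it was -0.23 with either. Genes are not independent replicates, and all these points share the same 6 libraries.

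**Figure D2:**
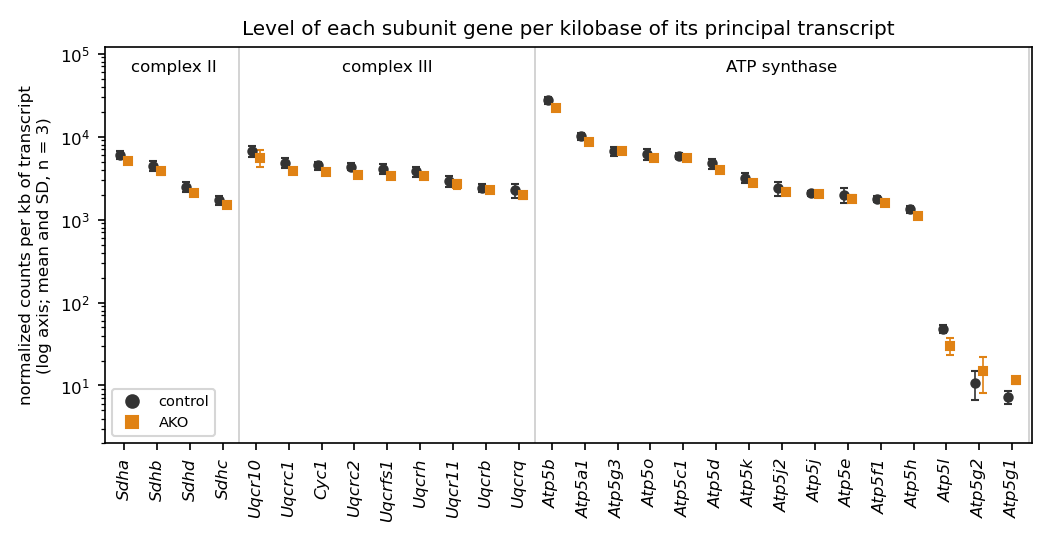
Normalized counts per kilobase of principal transcript (y axis, log scale) for each subunit gene (x axis, ordered by control level within its complex), as mean and SD of 3 control samples (circles) and 3 AKO samples (squares). Atp5b is the highest at 27333 in control, and Atp5l, Atp5g2 and Atp5g1 lie far below the rest, under 50 in control.

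The genes varied together from sample to sample. Control replicate 2 was the highest sample for 24 of the 31 genes and AKO replicate 1 the lowest for 21. Relative to the control mean, the median log2 value over the 28 tested subunit genes was -0.16, 0.17 and -0.01 in the control samples. In the AKO samples it was -0.31, -0.17 and -0.14. By this median control replicate 1 fell between AKO replicates 2 and 3, so that the groups overlapped. Without control replicate 2 the median log2 fold change of these genes was -0.13 in place of -0.21. By complex it was -0.13 for complex II, -0.17 for complex III and -0.06 for ATP synthase. The median of complex III was also nearer to 0, at -0.13, without AKO replicate 1, and that of ATP synthase was farther from it, at -0.27, without control replicate 1. Without control replicate 2 Sdha stood at -0.14, Uqcrc2 at -0.26 and Atp5b at -0.21. As a share of all reads on listed genes, the 29 subunit and cytochrome c genes took 0.923%, 1.06% and 0.943% in control and 0.817%, 0.881% and 0.893% in AKO. These shares did not overlap. Atp5b alone made up from 28.0% to 29.8% of the reads on these genes.

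**Figure D3:**
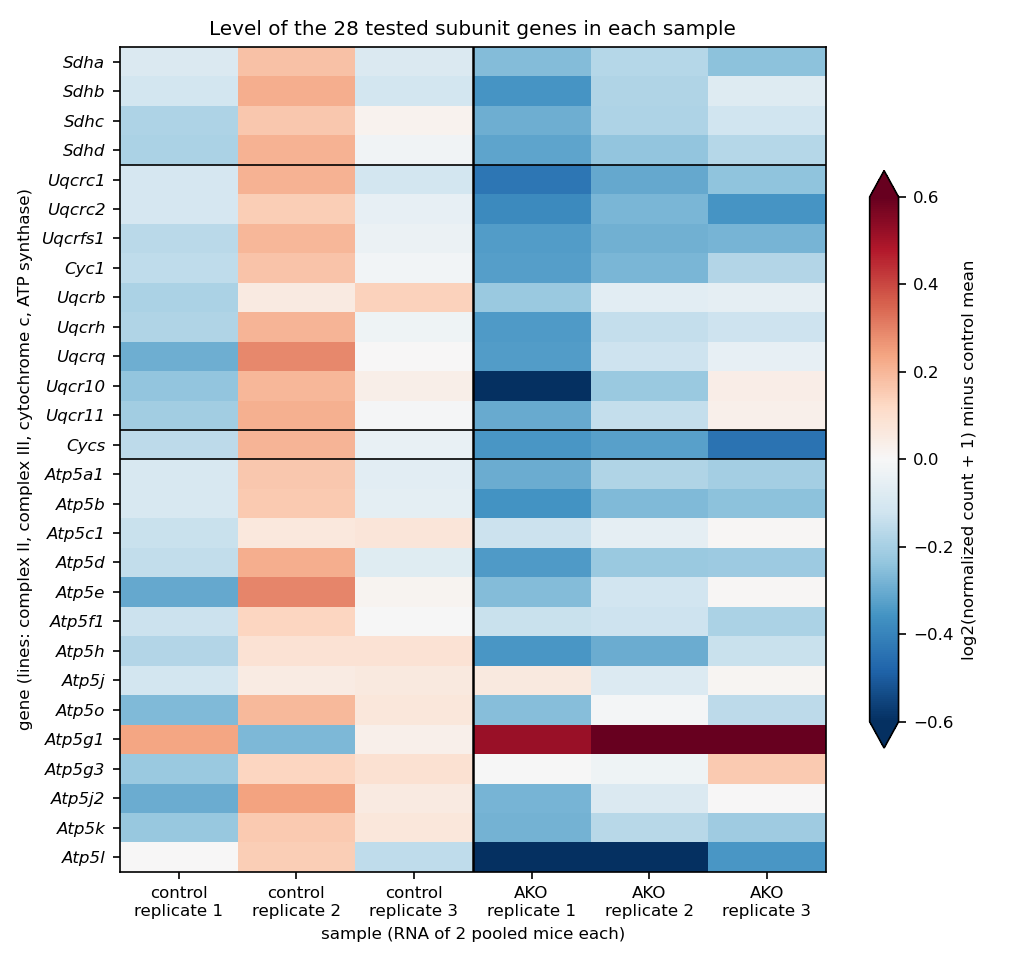
Colour gives log2(normalized count + 1) of each of the 28 tested subunit genes (rows) in each of the 6 samples (columns) minus the mean of the control samples, with the scale ending at 0.6 in either direction. The column of control replicate 2 is mostly red and that of AKO replicate 1 mostly blue, and Atp5g1 is the row with the opposite pattern.

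Genes next to these complexes in the pathway had lower values too, some by more. Of the 5 genes for enzymes beside succinate dehydrogenase in the TCA cycle all had AKO samples wholly below the control samples (8.31% of all genes tested did), with a median of -0.32. Suclg1, a succinyl-CoA ligase subunit that makes succinate, had 3928, 4763 and 4025 normalized counts in control and 2973, 3042 and 3151 in AKO (log2 fold change -0.47, standard error 0.08, adjusted p = 0.205 with limma, adjusted p = 1.8e-04 with DESeq2). Sucla2, a partner subunit of it, had 5959, 7053 and 5249 normalized counts in control and 4258, 4280.1 and 4185 in AKO (log2 fold change -0.51, standard error 0.10, adjusted p = 0.254 with limma, adjusted p = 2.9e-04 with DESeq2). Other enzymes feed electrons to ubiquinone beside complex II. Of 8 such genes 7 had values below 0, with a median of -0.29, and DESeq2 called 4 (0.757% of all genes it tested were called lower). Etfdh, which passes electrons from fatty acid oxidation to ubiquinone, had 5771, 6907 and 5225 normalized counts in control and 3881, 4088 and 4064 in AKO (log2 fold change -0.56, standard error 0.10, adjusted p = 0.205 with limma, adjusted p = 2.0e-05 with DESeq2). Etfa and Etfb, the subunits of the flavoprotein that feeds Etfdh, had log2 fold changes of -0.37 and -0.37, and Chdh, choline dehydrogenase, of -0.34. The mitochondrially encoded cytochrome b of complex III, mt-Cytb, had 645927, 771384 and 725491 normalized counts in control and 561756, 628177 and 567008 in AKO. These groups did not overlap (log2 fold change -0.28, standard error 0.19, adjusted p = 0.705 with limma). The mitochondrially encoded subunits of ATP synthase, mt-Atp6 and mt-Atp8, were looked for by their GENCODE M21 transcript names but not found among the listed genes.

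Factors that assemble the complexes had medians below 0 as well. These were -0.12 for the 4 genes of complex II (4 below 0), -0.15 for the 7 of complex III and cytochrome c (6 below 0) and -0.20 for the 5 of ATP synthase (5 below 0). Without control replicate 2 they were -0.044, -0.048 and -0.12, and 3 of the 5 factors of ATP synthase were then below 0. None of these 16 genes was called by limma, edgeR or DESeq2, and 4 were lower in AKO with an unadjusted limma p under 0.05 (4.69% of all genes tested). The smallest p in each list belonged to Sdhaf2 (log2 fold change -0.12, standard error 0.07, adjusted p = 0.665), which attaches the flavin to Sdha, Uqcc1 (log2 fold change -0.26, standard error 0.06, adjusted p = 0.349), needed to make cytochrome b, and Atpaf2 (log2 fold change -0.32, standard error 0.08, adjusted p = 0.349), which binds the alpha subunit before assembly, all with limma. The carriers that bring ADP and phosphate to ATP synthase had a median of -0.05 over 3 genes with overlapping groups, which turned to 0.0045 with scaling by total reads and was -0.012 without control replicate 2, and the smallest p was that of Slc25a5 (log2 fold change -0.13, standard error 0.06, adjusted p = 0.599 with limma). Of 3 further ATP synthase genes listed under other names, Atpif1 among them, the smallest p was that of Usmg5 (log2 fold change -0.17, standard error 0.12, adjusted p = 0.716 with limma). Among 11 tested regulators of respiratory genes 8 were below 0 (7 with scaling by total reads), with a median of -0.19 (-0.097 without control replicate 2). Esrrg, an estrogen-related receptor, had 125, 97.9 and 88.4 normalized counts in control and 70.1, 57.6 and 65.6 in AKO (log2 fold change -0.67, standard error 0.17, adjusted p = 0.351 with limma). Its groups did not overlap, nor did those of Esrra (log2 fold change -0.31) and Gabpa (-0.19). These 3 regulators lay wholly below control (8.31% of all genes tested did), and 1, Nrf1, wholly above. Nrf1, for 1 of the factors whose motifs were searched in the promoters, had 266, 239.8 and 238 normalized counts in control and 271, 272 and 297 in AKO (log2 fold change 0.18, standard error 0.09, adjusted p = 0.608 with limma). All its AKO samples lay above the control samples (6.14% of all genes tested did so). For comparison, the 36 complex I subunit genes had a median of -0.18 with 35 below 0, and the 15 of complex IV one of -0.17 with 14 below 0. Without control replicate 2 these medians were -0.11 and -0.046, with 33 of 36 and 12 of 15 genes below 0. No test of a difference between complexes was made. DESeq2 called Ndufv1 of complex I (log2 fold change -0.35, adjusted p = 0.0187, against 0.315 with limma). In complex IV it called Cox7a1 (-1.09, adjusted p = 2.5e-05, against 0.233 with limma) and Cox8b (-0.64, adjusted p = 3.3e-04, against 0.295 with limma), the isoforms that mark beige adipocytes and muscle.

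Markers of cell types that the depot could hold were summed beside these genes, in normalized counts per sample. The 8 adipocyte markers summed to values from 438619 to 463524 in control and from 386793 to 418047 in AKO, without overlap, and 7 of the 8 had values below 0. Fabp4 and Pnpla2 had the largest counts in this sum. Taken singly, only Lipe and Pnpla2 lay wholly below control (8.31% of all genes tested did), and Lep was higher in AKO (log2 fold change 0.36). The 10 beige adipocyte markers, several of which the study picked out in these same samples, summed to values from 29304 to 42190.4 in control and from 12761 to 16222 in AKO, and 10 of 10 were lower in AKO. Ucp1 had 18058, 25393 and 16827 normalized counts in control and 5401, 4836 and 7801 in AKO (log2 fold change -1.75, standard error 0.21, adjusted p = 0.0703 with limma), a larger difference than that of any subunit gene. Elovl3, an enzyme of fatty acid elongation, was the one beige marker that limma called (log2 fold change -1.64, adjusted p = 0.0350). DESeq2 called 7 of the 10, all lower: Ucp1 (adjusted p = 2.0e-06), Elovl3 (5.6e-22), Cox7a1 and Cox8b as above, Cidea (2.0e-06, against 0.227 with limma), Dio2 (5.3e-07, against 0.205) and Otop1 (0.00162, against 0.323). Limma and edgeR called no marker of the other lists, and DESeq2 called only Dpp4, a progenitor marker that was higher in AKO (log2 fold change 0.56, adjusted p = 0.00844, against 0.315 with limma). The 24 skeletal muscle markers summed to values from 1004 to 34794 in control and from 25872 to 147045 in AKO, which overlapped, with 21 of 24 higher in AKO. The other 3 were highest in control replicate 2, with 120 (Mb), 444 (Myh1) and 126 (Myh2) normalized counts. In the remaining samples they reached at most 25.9, 78.7 and 30.7. Without control replicate 2, 0 of the 24 were below 0. Of the 24 muscle markers 2 had a count of 0 in at least 1 sample. The 10 macrophage markers summed to values from 11493 to 16419 in control and from 14228 to 19703 in AKO, with 10 of 10 higher in AKO on average. The 8 progenitor and fibroblast markers, 8 of 8 higher in AKO, summed to values from 66215 to 94699 in control and from 78961 to 107005 in AKO. For both lists the sums of the groups overlapped, as they did for lymphocyte, endothelial and mammary epithelial markers. The sums of the 10 lymphocyte markers ran from 574 to 1807 in control and from 646 to 2368 in AKO, and 10 of 10 had values above 0. Control replicate 1 and AKO replicate 2 held the highest of these sums, far above the other samples, and without control replicate 2 the values of 6 of the 10 turned to below 0. The sums of the 8 endothelial markers ran from 20465 to 22232 in control and from 18753 to 21456 in AKO, with 7 of 8 below 0 (3 of 8 with scaling by total reads). Of 8 mammary epithelial markers 7 were listed, with sums from 26.9 to 1373 in control and from 188 to 1854 in AKO, 4 of them at 0 in at least 1 sample. The part of these cell types in the subunit values was not tested. Per read of Adipoq, the reads on the 29 subunit and cytochrome c genes were 4.84, 6.03 and 4.77 in control and 4.21, 5.49 and 4.52 in AKO, and the groups overlapped. Without control replicate 1, the sample lowest in muscle transcripts, the median log2 fold change of the subunit genes was -0.29. Without AKO replicate 2 or AKO replicate 3, the samples highest in them, it was -0.24 in both cases.

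**Figure D4:**
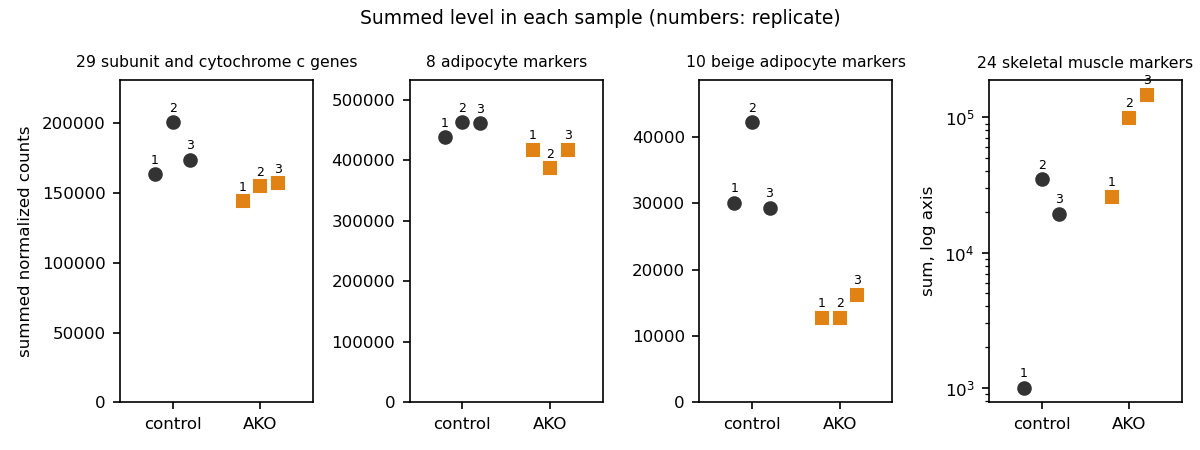
Summed normalized counts (y axes, linear from 0 except the log axis of the muscle panel) in each control sample (circles) and AKO sample (squares), numbered by replicate, for the 29 subunit and cytochrome c genes, 8 adipocyte markers, 10 beige adipocyte markers and 24 skeletal muscle markers. The sums of the subunit genes and of both adipocyte lists do not overlap between groups, with beige sums up to 16222 in AKO and from 29304 in control, while the muscle sums overlap. Of the 8 adipocyte markers, only Lipe and Pnpla2 do not overlap when taken singly.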

How the data were processed

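Whole iWAT of 3 control and 3 AKO samples was measured by bulk RNA-Seq. STAR (GRCm38.p6) and featureCounts (GENCODE M25) gave the read counts, which the authors scaled with DESeq2 size factors. The strand setting and the row filter were not given in the sources used here. The deposited signal is thus a normalized count per gene and sample. The authors' deposited log2 fold changes, p-values and adjusted p-values were not used. All values were whole multiples, within 0.01 of a read, of 1 step per sample (1.00, 1.08 and 1.02 in control, 0.960, 0.976 and 0.964 in AKO), which gave whole reads for 100% of values.

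Log2(normalized count + 1) was tested with limma 3.58.1 (trend, R 4.3.3), with Benjamini-Hochberg adjustment over 13855 genes (mean at least 10) and a threshold of 0.05. Recovered reads were tested with edgeR 4.0.16 (quasi-likelihood) and DESeq2 1.42.0. The tests were run on simulated data first. Single genes were also compared by exact permutation. The p-values measure the spread between pools of mice. Positions, lengths and shared sequence came from GENCODE M21, an earlier annotation of the same build.

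The members and lists were chosen with earlier results of these data known. Genes given in every sample were the complex II subunits, the catalytic and electron-carrying subunits, Uqcrc1, Atpif1, the subunit c genes, the extremes of each complex by p, fold change and level, and every gene called by a tool. Some genes beyond this rule (Atp5d, Atp5j, Atp5s, Atp5sl, Nrf1, Pdzd9, Gabpa, Donson) were chosen after their values were seen. From the other lists except those of markers, called genes and the smallest p were named. The marker lists were given as sums, with Ucp1, Adipoq, Acta1, Ckm and the called markers named. Esrra, Fabp4, Lipe, Pnpla2, Lep, Mb, Myh1 and Myh2 were also named after their values were seen. Alternatives were other pseudocounts (0.1 and 10) and filters, TMM or RLE factors, robust shrinkage, the replicate block, leaving out each sample, and, added after seeing the data, scaling by total reads.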

Additional observations from a re-analysis of the deposited data

How the results depend on the processing

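Over 17 alternative settings, between 25 and 29 of the 30 genes were lower in AKO, and the medians by complex stayed below 0. Without single samples these medians ran from -0.28 to -0.13 for complex II, from -0.33 to -0.13 for complex III and from -0.27 to -0.06 for ATP synthase. Scaling by total reads moved the median over all tested genes from 0.01 to 0.07 and that over the subunit genes to -0.15. DESeq2 called 1 of the genes, Uqcrc2, where every limma and edgeR setting called 0, and the cause was not tested. Of 31 single genes, the 30 tested ones and Atpif1, 24 kept their direction in every setting. With TMM factors Atp5j turned to 0.0054 (limma) or 0.0093 (edgeR). With scaling by total reads Atp5j turned to 0.056, Atp5s to 0.042 and Atp5c1 to 0.00030. Leaving out single samples gave log2 fold changes from -0.058 to 0.035 for Atp5j, from -0.078 to 0.045 for Atp5s and from -0.068 to 0.11 for Atp5g3. They ran from -0.017 to 0.19 for Atpif1, from -0.28 to 0.024 for Atp5e and from -0.27 to 0.00038 for Atp5j2. Replicate numbers did not pair the samples, which were pools of different mice: same-numbered samples had correlations of 0.14, -0.35 and 0.24 in their deviations from the group means. With the replicate block in limma 0 of the 30 genes were called, 17 against 14 had an unadjusted p under 0.05, and 2 genes were called over the whole table. The share of all genes with such an unadjusted p in the blocked fit was not computed. Few reads stood behind Atp5g1, Atp5g2 and Atp5l, from 5 to 62 in any sample, and the part of depth or shared sequence in this was not tested.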
